A study of Mus musculus with 8 samples.

Results

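The genes described here encode acute phase proteins, the plasma and inflammatory proteins whose production changes when tissue is injured. They are Saa1, Saa2, Saa3, Orm1, Orm2, Hp, Hpx, Lcn2, Fgl1 and Apcs. They were chosen by symbol, and each matched a single row, so that they make up 10 of the 22504 genes listed for 8 RNA samples. All 8 samples came from Fah-/- mice of the 129S4 background, which lack fumarylacetoacetate hydrolase, the last enzyme of tyrosine breakdown, and need the drug NTBC (full dose 7.5 mg/L in the drinking water) to stay healthy. The 3 mice of the C 8w group had 8 weeks of moderate chronic liver injury (MCLI), in which NTBC was lowered to 2.5% of the full dose. The 3 mice of the C 8w + A 4w group had the same 8 weeks of MCLI and then 4 weeks with no NTBC, which causes severe acute liver injury (SALI). The 2 mice of the C 12w group had 12 weeks of MCLI. The labels give tumor as the tissue of C 12w and liver as that of the other groups. C 12w therefore differs from C 8w in both time and tissue, and from C 8w + A 4w in tissue and injury. C 8w + A 4w differs from C 8w in total time, 12 against 8 weeks, as well as in injury. No mouse on the full dose and no wild-type mouse was among the samples, and every comparison is therefore between injured livers or tumors.

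In the acute phase response, cytokines made at a site of injury, chiefly interleukin 6 (IL-6) and interleukin 1 (IL-1), reach hepatocytes and change what they secrete. IL-6 signals through STAT3, while IL-1 and tumor necrosis factor signal through NF-kB, and both act on acute phase genes together with C/EBP factors, of which C/EBP beta (Cebpb) is the best known. Positive acute phase proteins are made in larger amounts during the response and negative ones, such as albumin and transthyretin, in smaller amounts. Serum amyloid A proteins (Saa1, Saa2) and the orosomucoids (Orm1, Orm2) come mainly from hepatocytes, whereas Saa3 and Lcn2 are also made by macrophages, epithelia and, for Lcn2, neutrophils.

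The letters upstream of these genes are shown first, so that members of the same family can be compared. RefSeq promoter sequences (build GRCm38.p6) were matched for 7 of the 10 genes, namely Saa1, Saa2, Saa3, Orm2, Hpx, Lcn2 and Apcs. Each line gives the 250 bases before the transcription start on the gene's own strand, 5′ to 3′. Capitals mark the letters TTGCNNAA read on either strand, a simplified form of the C/EBP motif.
Saa1, chr7:46742981-46743230, minus strand: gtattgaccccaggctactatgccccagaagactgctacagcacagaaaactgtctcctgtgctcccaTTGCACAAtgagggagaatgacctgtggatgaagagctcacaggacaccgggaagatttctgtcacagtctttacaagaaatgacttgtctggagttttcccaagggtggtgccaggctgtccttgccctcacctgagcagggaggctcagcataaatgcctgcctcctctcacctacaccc
Saa2, chr7:46751583-46751832, plus strand: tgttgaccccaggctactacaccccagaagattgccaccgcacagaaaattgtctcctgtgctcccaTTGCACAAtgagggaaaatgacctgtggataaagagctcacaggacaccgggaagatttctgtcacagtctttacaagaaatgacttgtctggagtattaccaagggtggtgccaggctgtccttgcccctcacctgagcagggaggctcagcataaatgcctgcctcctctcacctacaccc
Saa3, chr7:46715677-46715926, minus strand: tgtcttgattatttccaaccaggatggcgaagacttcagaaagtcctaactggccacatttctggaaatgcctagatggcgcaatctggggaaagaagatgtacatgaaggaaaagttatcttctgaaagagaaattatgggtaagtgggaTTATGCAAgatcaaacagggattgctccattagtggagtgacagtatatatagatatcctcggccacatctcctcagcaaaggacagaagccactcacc
Orm2, chr4:63362199-63362448, plus strand: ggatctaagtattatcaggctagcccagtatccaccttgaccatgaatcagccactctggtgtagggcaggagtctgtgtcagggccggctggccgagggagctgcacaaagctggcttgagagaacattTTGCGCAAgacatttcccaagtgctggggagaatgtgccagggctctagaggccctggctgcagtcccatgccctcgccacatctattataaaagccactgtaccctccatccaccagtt
Lcn2, chr2:32387740-32387989, minus strand: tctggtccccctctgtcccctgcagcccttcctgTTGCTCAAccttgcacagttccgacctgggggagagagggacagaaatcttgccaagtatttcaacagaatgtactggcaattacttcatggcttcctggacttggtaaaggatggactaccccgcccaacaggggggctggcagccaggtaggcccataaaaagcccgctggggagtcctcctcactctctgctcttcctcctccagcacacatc

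The Saa1 and Saa2 promoters were identical in 94.8% of their aligned positions (238 of 251), and both carried TTGCACAA, with its first base at position -182 of Saa1 and -183 of Saa2 (counted from the transcription start). Saa3, which lies in the same cluster of chromosome 7, shared 52.2% of aligned positions with Saa1 and carried TTATGCAA, a match on the other strand, at -99. The match was TTGCGCAA in Orm2, at -120, and TTGCTCAA in Lcn2, at -216. Hpx carried TTGCTGAA at -200. In all, 6 of the 7 promoters held these letters, against 9.56% of the 32851 mouse promoters of the same length. Apcs held none of them and was the only one of the 7 with the STAT letters TTCNNNGAA on either strand, at -244, letters that occurred in 7.02% of all promoters. The consensus motif of NF-kB, searched on either strand, was in 0 of the 7 and in 3.9% of all promoters. No match of a motif overlapped another. A match is a description of the letters only, since no binding was measured.

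Expression is given as FPKM (fragments per unit of gene length and of mapped fragments), so that levels can be compared between genes. The number of reads behind each value is unknown. FPKM summed to between 324735 and 399342 per sample, and between 9797 and 10658 genes reached an FPKM of at least 1. In the labels C 8w and C 12w share one series of sample codes and C 8w + A 4w has another, and an effect of that series cannot be told apart from the effect of the C 8w + A 4w treatment. Alb, the albumin gene, chosen here after its values were seen, was listed at 0 in all 5 C 8w and C 12w samples and at 12946 to 16949.8 in C 8w + A 4w, so a value of 0 is reported only as listed. It was 1 of 3 genes, with Rpl23a and mt-Co1, that were listed at 0 in all 5 of those samples and at an FPKM of 100 or more in all 3 C 8w + A 4w samples, and 0 genes were so in the other direction. None of the 3 was an acute phase gene described here. Whether both code series were quantified in the same run is not given in the sources used here, and this bears on every comparison with C 8w + A 4w. The text on RNA extraction in the labels names retinas. Of 12 retina markers, 2 reached an FPKM of 1 in each sample, whereas 11 or 12 of 12 hepatocyte markers did in every sample. The gene Fah itself had an FPKM of 15.6 to 16.8 in C 8w, 5.02 to 6.36 in C 8w + A 4w and 13.5 to 14.4 in C 12w, and a value for the whole gene cannot check the deleted allele.

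The 10 genes covered a wide range of levels. In C 8w, mean FPKM decreased in the order Hpx, Hp, Orm1, Fgl1, Apcs, Orm2, Lcn2, Saa3, Saa1 and Saa2. Neighbours in this order had ranges that did not overlap, except Fgl1 with Apcs, Lcn2 with Saa3 and Saa3 with Saa1. Hpx was between the 17th and the 20th most abundant gene in each C 8w mouse, and Saa2 between the 8239th and the 9260th. In C 8w + A 4w, Lcn2 and Saa3 stood higher in the order, which read Hpx, Hp, Orm1, Fgl1, Lcn2, Apcs, Saa3, Orm2, Saa1 and Saa2, and of the neighbours in it only Fgl1 and Lcn2 overlapped. In C 12w, Hpx, Hp and Orm1 again led, followed by Apcs, Fgl1 and Lcn2, with Apcs overlapping both Orm1 and Fgl1. The lowest 4, Saa1, Orm2, Saa2 and Saa3, also overlapped from neighbour to neighbour.

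**Figure D1:**
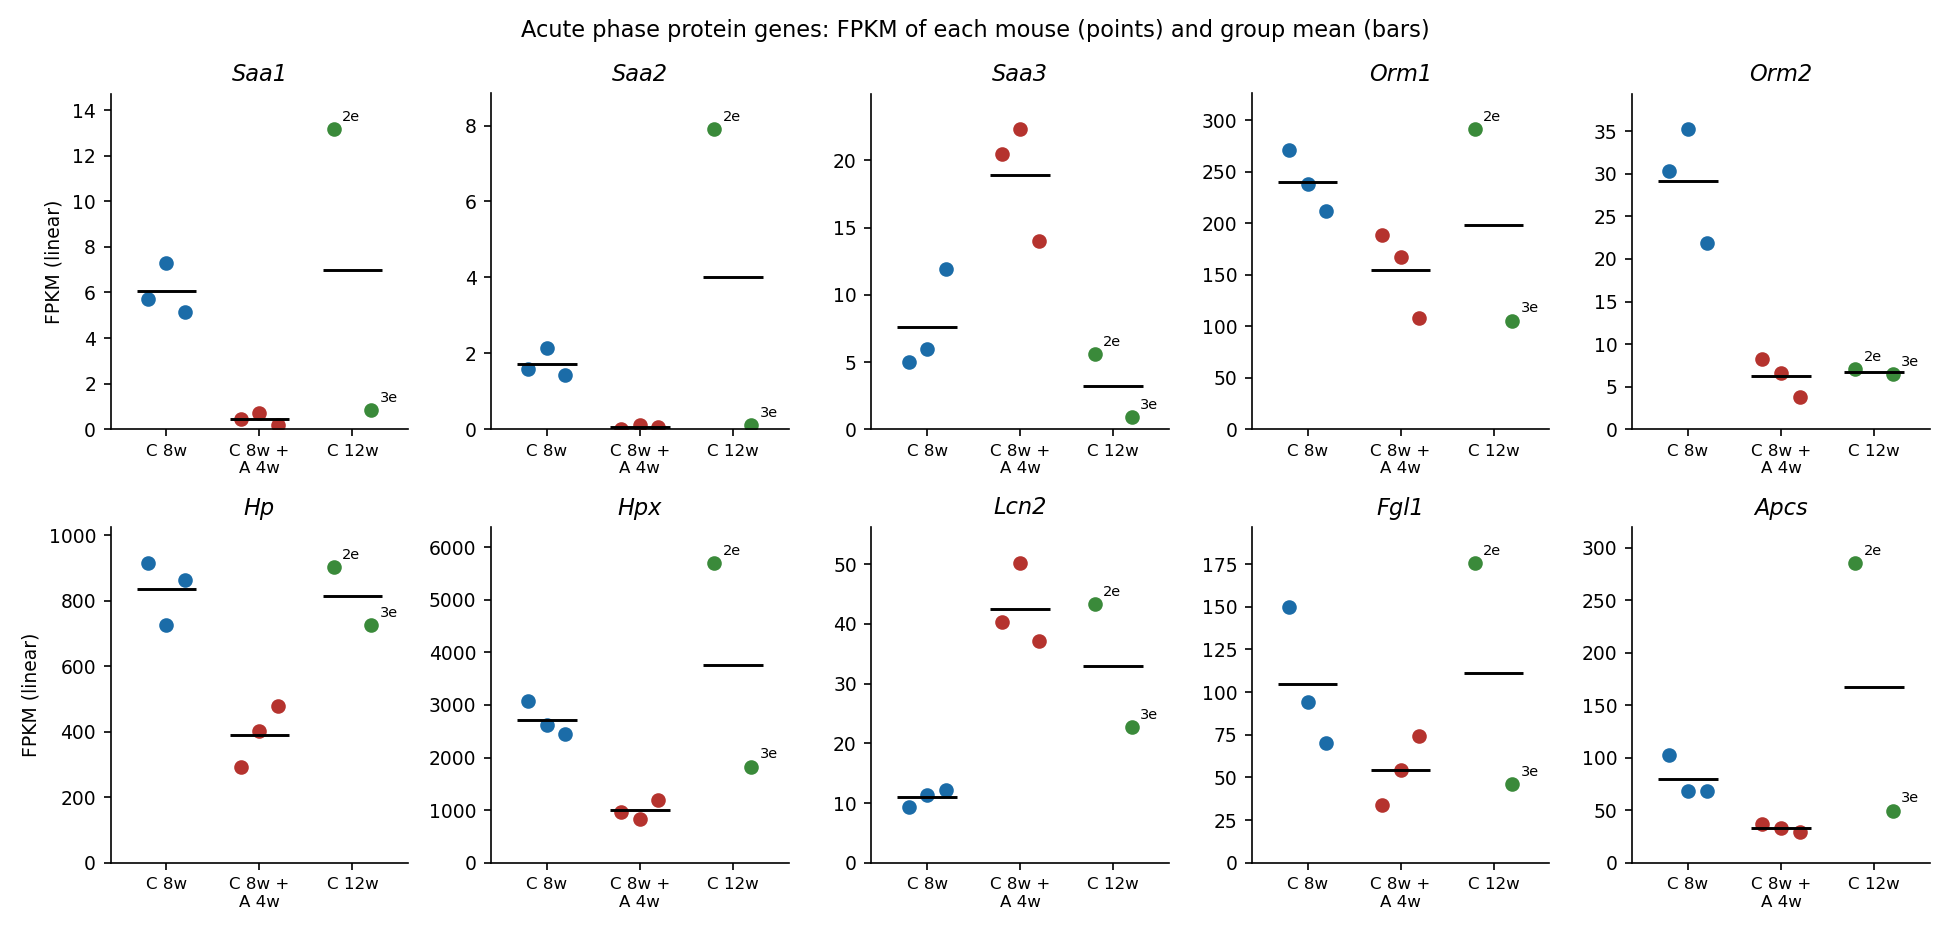
FPKM of the 10 acute phase protein genes (linear axes from 0, a scale for each gene), with a point for each mouse and a bar at the group mean for C 8w (n = 3), C 8w + A 4w (n = 3) and C 12w (n = 2, mice 2e and 3e marked). Saa3 and Lcn2 are high in C 8w + A 4w, the other genes are low there, and the C 12w mice are far apart for most genes but close together for Orm2.

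Saa1 encodes a lipoprotein-bound protein that is among the strongest markers of inflammation in mouse plasma. Its FPKM was 5.71, 7.29 and 5.14 in C 8w, 0.440, 0.720 and 0.167 in the C 8w + A 4w mice, and 13.2 and 0.825 in C 12w mice 2e and 3e. All 3 C 8w + A 4w mice were below the other 5 mice. Saa1 fell in C 8w + A 4w against C 8w, from 6.05 ± 1.11 to 0.442 ± 0.276 (mean ± SD, n = 3 each), a log2 fold change of -2.29 ± 0.61 (SE; limma, adjusted p = 0.0183). Genes were tested where at least 4 of the 8 mice had an FPKM of 1 or more, and Saa1 had it in exactly 4, the 3 of C 8w and mouse 2e. It thus entered the test only through mice in which it was high. It was still called with a minimum of FPKM 0.1, but not with no minimum (adjusted p = 0.0509). The call was also lost without mouse 1a, 2a, C096 or C098 (adjusted p = 0.0506 to 0.0602). Against C 12w the log2 fold change was -1.83 (adjusted p = 0.0711).

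Saa2, the neighbour and near copy of Saa1, had an FPKM of 1.60, 2.14 and 1.42 in C 8w, was listed at 0, 0.106 and 0.0537 in C 8w + A 4w, and was at 7.90 and 0.111 in C 12w mice 2e and 3e. The C 8w + A 4w group did not overlap the C 8w group, and Saa2 entered the test through the same 4 mice as Saa1. The log2 fold change was -1.36 ± 0.61 (SE; adjusted p = 0.108), and this scale, log2(FPKM + 1), understates the change of genes at such low levels. With a pseudocount of 0.1 in place of 1, it was -3.61 and passed the test (adjusted p = 0.0298). Of the 50-base windows of Saa1 transcripts, 31.5% also occurred in another gene, and 30.0% of those of Saa2 did, so that the split of reads between them is uncertain.

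Saa3, the serum amyloid A made by macrophages and epithelia as well as liver, had its highest levels in C 8w + A 4w. Its FPKM was 4.997, 5.96 and 11.9 in C 8w, 20.5, 22.3 and 14.0 in the C 8w + A 4w mice, and 5.59 and 0.897 in C 12w mice 2e and 3e. It was the only one of the 10 genes for which every C 8w + A 4w mouse was above all 5 others, a position held by 19.8% of all genes tested. Saa3 exceeded its C 12w level in the C 8w + A 4w group by a log2 fold change of 2.47 ± 0.51 (SE; limma, adjusted p = 0.00715), with group means of 18.9 and 3.24. It was 1.57 without mouse 3e and 3.37 without mouse 2e. Each of these fits sets the group against a single C 12w mouse, which is assumed to vary like the mice of the other groups. Against C 8w, where the mean was 7.62, the log2 fold change of 1.27 ± 0.45 had an adjusted p of 0.0550; without mouse 3a it was 1.60 and passed the test (adjusted p = 0.0407).

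The orosomucoids are lipocalins that bind drugs and basic lipophilic molecules in plasma. Orm2 had an FPKM of 30.3, 35.2 and 21.8 in C 8w, 8.31, 6.63 and 3.83 in the C 8w + A 4w mice, and 7.03 and 6.45 in C 12w mice 2e and 3e. All 5 mice of the later groups were below all 3 C 8w mice. Orm2 fell in C 8w + A 4w (log2 fold change -2.08 ± 0.25 SE, adjusted p = 0.000434) and in C 12w (-1.94 ± 0.28 SE, adjusted p = 0.00457), both against C 8w in limma. Between the later groups (C 8w + A 4w minus C 12w) the difference was -0.14 (95% interval -0.79 to 0.50).

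Orm1, the more abundant of the pair, had an FPKM of 271, 238 and 212 in C 8w, 188, 168 and 108 in the C 8w + A 4w mice, and 291 and 105 in C 12w mice 2e and 3e. The C 8w + A 4w mice were below the C 8w mice without overlap, and the C 12w mice lay on both sides of all others. No comparison passed for Orm1 in the fit of all 8 mice, with log2 fold changes of -0.67 (adjusted p = 0.171) in C 8w + A 4w and -0.45 (adjusted p = 0.442) in C 12w, each against C 8w. The copies share 20.4% of Orm1 windows and 22.7% of Orm2 windows with other genes, so the division of reads between them is uncertain too. Orm3, the third gene of the family, fell in C 12w against C 8w (log2 fold change -1.95 ± 0.26 SE, adjusted p = 0.00333), from a mean FPKM of 4.55 to 0.436, and shared 3.59% of its windows.

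Haptoglobin (Hp) and hemopexin (Hpx) are the scavengers of free hemoglobin and free heme in plasma, and were the most abundant of the 10 genes. Hp had an FPKM of 916, 726 and 864 in C 8w, 291, 402 and 480 in the C 8w + A 4w mice, and 903 and 725 in C 12w mice 2e and 3e. Every C 8w + A 4w mouse was below every other mouse, and C 8w and C 12w overlapped. Hp fell in C 8w + A 4w to 0.468 times its C 8w mean (log2 fold change -1.12 ± 0.21 SE, adjusted p = 0.00446) and to 0.480 times its C 12w mean (-1.08 ± 0.24 SE, adjusted p = 0.0100). In C 12w against C 8w the difference was -0.04 (95% interval -0.59 to 0.51).

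Hpx had an FPKM of 3082, 2621 and 2453 in C 8w, 971, 829 and 1199.6 in the C 8w + A 4w mice, and 5701 and 1825 in C 12w mice 2e and 3e. The C 8w + A 4w mice were again the lowest 3 of the 8. Hpx fell by 1.45 ± 0.38 (SE) on the log2 scale against C 8w (adjusted p = 0.0177) and by 1.71 ± 0.43 against C 12w (adjusted p = 0.0168). The call against C 8w was lost without mouse 1a, 2a, C096 or C097 (adjusted p = 0.0506 to 0.0696) and with no minimum FPKM (0.0702). The log2 fold change against C 12w was -2.53 without mouse 3e and -0.88 without mouse 2e, each against a single C 12w mouse. The call was lost without mouse C097 (adjusted p = 0.05004), with no minimum FPKM (0.0647) and in a fit of these groups alone (0.0583). Neither Hp nor Hpx shared any 50-base window with another gene. Hmox1, the heme oxygenase that breaks down scavenged heme, rose by 1.98 ± 0.19 (SE) on the log2 scale in C 8w + A 4w against C 8w (adjusted p = 0.000116), from a mean FPKM of 53.3 to 215. Lrp1, the hemopexin receptor, fell by 0.89 (adjusted p = 0.00718). Cd163, the macrophage receptor for haptoglobin bound to hemoglobin, exceeded its C 12w level in C 8w + A 4w by 1.75 on the same scale (adjusted p = 0.00346). Against C 8w, Cd163 was not called in C 8w + A 4w (0.61; limma, adjusted p = 0.105) and was lower in C 12w (-1.13, adjusted p = 0.0354).

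Lcn2, the lipocalin that withholds iron from bacteria by binding their siderophores, was the only gene of the 10 to rise in both later groups. Its FPKM was 9.30, 11.4 and 12.3 in C 8w, 40.3, 50.2 and 37.1 in the C 8w + A 4w mice, and 43.3 and 22.7 in C 12w mice 2e and 3e. All 5 mice of the later groups were above all 3 C 8w mice. The log2 fold change against C 8w was 1.86 ± 0.23 (SE; adjusted p = 0.000496) in C 8w + A 4w, where the mean was 3.87 times that of C 8w, and 1.44 ± 0.26 (adjusted p = 0.00931) in C 12w, where it was 3.005 times. Between the later groups it was 0.41 (95% interval -0.18 to 1.00). No 50-base window of Lcn2 was shared with another gene.

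Lcn2 and Saa3 have sources other than hepatocytes, and the markers of those cells were read beside them. Of 12 neutrophil markers, between 1 and 4 reached an FPKM of 1 per mouse and up to 4 were listed at 0, and their sum was 4.02 to 17.2 in C 8w, 9.45 to 11.8 in C 8w + A 4w and 7.13 to 17.0 in C 12w. None of 12 macrophage markers was listed at 0, and their sum was 164 to 198 in C 8w and 142 to 182 in C 12w. Of the mice with added severe injury, it was 458 in C097, which also had the highest Saa3 and Lcn2 of the 8 mice, but 144 in C096 and 130 in C098, both below every C 8w mouse. The sum of 10 bile duct markers was 14.8 to 22.0 in C 8w and 46.3 to 51.9 in the C 8w + A 4w group, while in C 12w it was 39.9 in mouse 2e and 360 in mouse 3e (of which Spp1, named after its values were seen, made up 311). The part of these cells in the Lcn2 and Saa3 values was not tested, and in whole tissue fewer cells of a type and less RNA per cell cannot be told apart.

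Fgl1 encodes a fibrinogen-like protein that hepatocytes secrete and that is a ligand of the T cell receptor LAG3. It had an FPKM of 150.1, 94.1 and 70.3 in C 8w, 33.7, 54.6 and 74.5 in the C 8w + A 4w mice, and 176 and 46.2 in C 12w mice 2e and 3e. It was the only one of the 10 genes whose C 8w and C 8w + A 4w mice overlapped. Its log2 fold change in C 8w + A 4w against C 8w was -0.94 ± 0.50 (SE; adjusted p = 0.167).

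Apcs encodes serum amyloid P component, the pentraxin that acts as the main acute phase reactant of its family in the mouse. Its FPKM was 103, 67.9 and 68.5 in C 8w, 36.8, 32.9 and 29.7 in the C 8w + A 4w mice, and 285 and 49.5 in C 12w mice 2e and 3e. The 3 C 8w + A 4w mice were the lowest of the 8 and close to each other. Apcs in C 8w + A 4w was lower than in C 12w by a log2 fold change of -1.82 ± 0.59 (SE; limma, adjusted p = 0.0444). The call was lost when any single C 8w or C 8w + A 4w mouse was left out, and with median-ratio scaling (-1.83, adjusted p = 0.0591). It was also lost with a minimum of FPKM 0.1 (adjusted p = 0.0504), with no minimum (0.0943) and in a fit of these groups alone (0.103). Without C 12w mouse 2e, against a single C 12w mouse, the log2 fold change was -0.57. Against C 8w it was -1.22 ± 0.53 (adjusted p = 0.0970). Crp, the other pentraxin of this kind, fell by 3.05 ± 0.25 (SE) against C 8w (adjusted p = 5.25e-05), from a mean FPKM of 68.8 to 7.65.

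**Figure D2:**
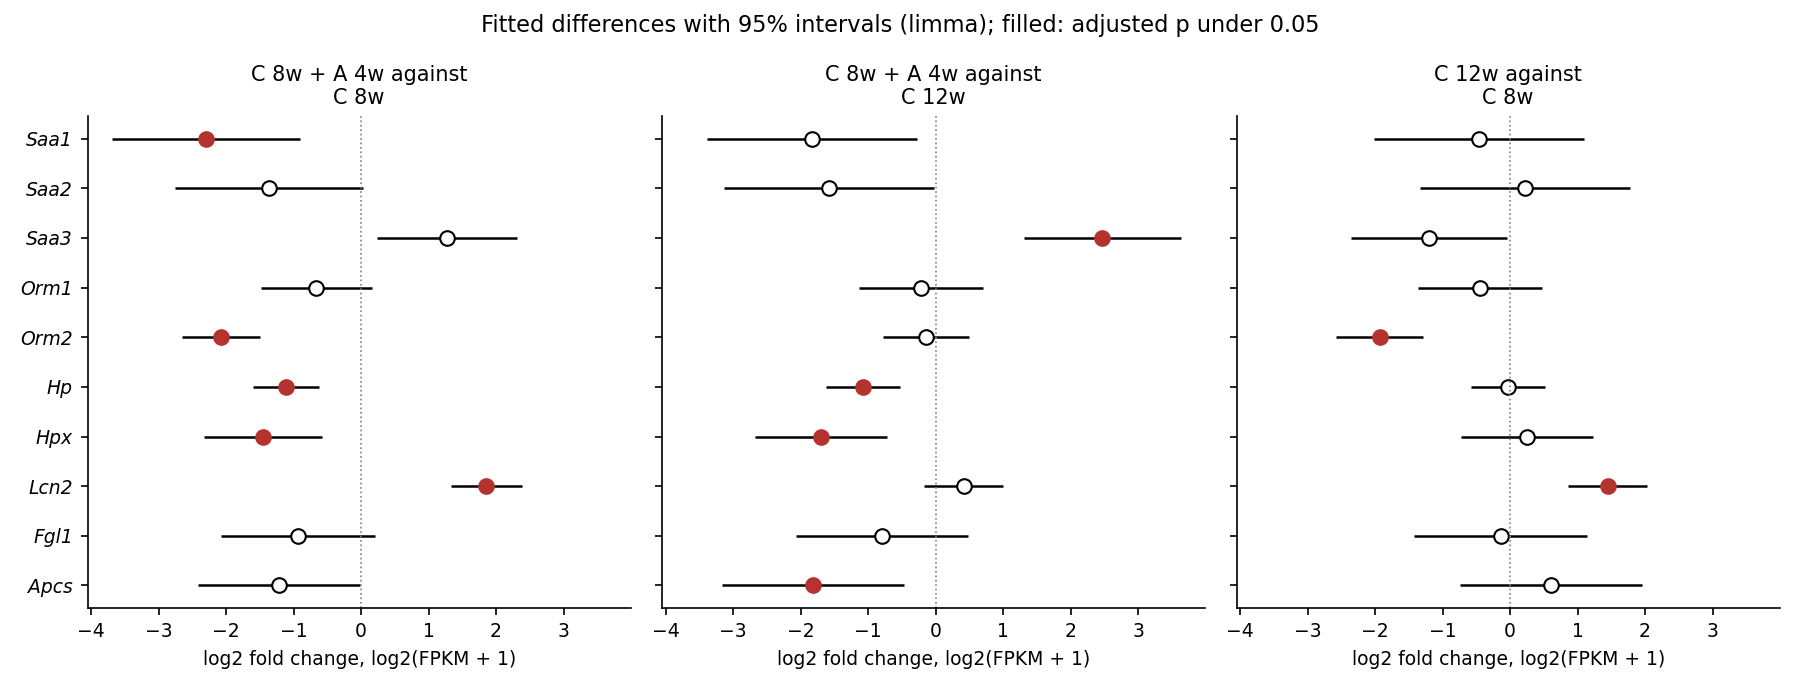
Log2 fold change of each gene on the log2(FPKM + 1) scale (points) with its 95% interval (lines) in the 3 comparisons, from a single limma fit of all 8 samples; filled points have an adjusted p under 0.05. Lcn2 and Saa3 lie to the right of 0 and the other 8 genes to the left in C 8w + A 4w against C 8w, where 5 points are filled.

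The first comparison sets chronic injury followed by severe injury against chronic injury alone. The C 8w + A 4w mice had 12 weeks in total and the C 8w mice 8, so that time differs as well. Of the 10, 1 rose (Lcn2) and 4 fell (Saa1, Orm2, Hp and Hpx) in C 8w + A 4w against C 8w, with Saa1 tested only through mice in which it was high. Among all 10244 genes tested 39.4% were called, 25.3% higher and 14.1% lower, so that the share called among the 10 was near that of all genes. The split over all genes moved with the scaling, from 2591 higher and 1443 lower to 1899 and 2168 with median-ratio scaling, under which the 10 genes again had 1 rise and 4 falls. The groups did not overlap for 9 of the 10, against 61.4% of all genes. The median log2 fold change of the 10 genes was -1.17, beside 0.12 over all genes. Both values include Saa1 and Saa2, for which the filter favoured C 8w standing above C 8w + A 4w. The count of 5 changed with the C 12w mice in the fit. In a fit of these 6 mice alone, or with either C 12w mouse left out, all 10 genes were called, 2 higher (Lcn2 and Saa3) and 8 lower, among them Saa1 and Saa2, which within these 6 mice reached an FPKM of 1 only in C 8w; of all genes, 50.6% were in the fit of the 6 mice, 50.7% without mouse 2e and 50.6% without 3e. The count was 3 without mouse 1a, 2a or C096, where Saa1 and Hpx were no longer called, and 4 without mouse C097 (Hpx not called) or C098 (Saa1 not called). The share of all genes called was 24.1%, 28.5% and 30.3% without 1a, 2a and C096, and 34.9% and 31.4% without C097 and C098. The count was 6 without mouse 3a, where Saa3 was called as well and 29.2% of all genes were called, and 6 with a pseudocount of 0.1, where Saa2 was called as well and 39.7% of all genes were.

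All 3 C 8w + A 4w mice were below the other 5 mice for Saa1, Saa2, Hp, Hpx and Apcs, 5 genes of 10, a position that 13.3% of all genes held. For Saa1 and Saa2 the filter favoured this position, since they were tested only through C 8w and mouse 2e, which leaves Hp, Hpx and Apcs. Hepatocyte markers were read beside them. The 11 markers other than Alb summed to an FPKM of 12474 to 15304 in C 8w, 11177 to 13648 in C 8w + A 4w and 10721 to 15833 in C 12w. As single genes, 6 of the 11 hepatocyte markers tested fell in C 8w + A 4w against C 8w, with a list median log2 fold change of -0.96. The 1 that rose was Apoa1, from a mean FPKM of 3114 to 6365. It makes up a large part of the sums, which therefore do not show the course of the other markers. The parts of the code series and of the longer total time than in C 8w cannot be told apart from that of the injury in these differences.

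C 12w had the same total of 12 weeks as C 8w + A 4w, but it differs in tissue (tumor) and code series as well as in injury. Against C 12w, 1 of the 10 genes was higher in C 8w + A 4w (Saa3) and 3 were lower (Hp, Hpx and Apcs). Of all genes, 32.8% were called, 17.4% higher and 15.4% lower. The groups did not overlap for 6 of the 10 genes, against 52.3% of all genes, and the median log2 fold change was -0.94, beside 0.0077 over all genes. Both values include Saa1 and Saa2, which passed the filter only through C 8w and mouse 2e. The count was 8 of 10, 1 higher and 7 lower, without C 12w mouse 3e, and 4 of 10, 2 higher and 2 lower, without mouse 2e, where 30.5% and 41.1% of all genes were called, respectively. With 1 C 12w mouse left, its spread was assumed to be that of the other groups, and the 7 lower genes include Saa1 and Saa2, tested only through C 8w and mouse 2e. It was 2, Saa3 and Hp, without mouse C097, where 30.7% of all genes were called. The C 8w + A 4w mice enter both of these comparisons, so that they are not independent of each other.

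In C 12w against C 8w, within 1 series of codes, only Lcn2 rose and only Orm2 fell among the 10 genes, and these were also the only 2 whose groups did not overlap. Of all genes 19.2% were called, 12.2% higher and 6.98% lower, and 54.5% did not overlap. With median-ratio scaling the split of all genes moved from 1247 higher and 715 lower to 883 and 1125, while the 10 genes again had 1 rise and 1 fall. Their median log2 fold change was -0.09, beside 0.12 over all genes. This count rose to 6 when either C 12w mouse was left out, but with opposite directions, in fits where the spread of the single C 12w mouse was assumed to be that of the other groups. Without mouse 2e, 5 genes were lower (Saa1, Saa2, Saa3, Orm1 and Orm2) and 1 higher (Lcn2), whereas without mouse 3e, 5 were higher (Saa1, Saa2, Hpx, Lcn2 and Apcs) and 1 lower (Orm2). Of all genes, 36.1% were called without mouse 2e, 2561 higher and 1141 lower, and 14.9% without mouse 3e, 879 higher and 647 lower. Saa1 and Saa2 reached an FPKM of 1 only in C 8w and mouse 2e, so that without 2e they did so only in C 8w, and the filter favoured their lower calls there.

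The C 12w mice were therefore compared directly. Each of the 10 genes was higher in mouse 2e than in mouse 3e, while 39.2% of all genes were. Saa1 and Saa2 were tested only because mouse 2e, with the C 8w mice, reached an FPKM of 1, so that the filter itself favoured this direction and a high ratio for them. The ratio was 70.9 for Saa2, 15.9 for Saa1, 6.23 for Saa3, 5.76 for Apcs and 3.80 for Fgl1. It was 3.12 for Hpx, 2.76 for Orm1, 1.90 for Lcn2, 1.25 for Hp and 1.09 for Orm2. The median log2 difference was 1.72, beside -0.11 over all genes. Mouse 2e was above all 3 C 8w mice for 7 of the 10 (Saa1, Saa2, Orm1, Hpx, Lcn2, Fgl1 and Apcs), against 44% of all genes. Mouse 3e was below all 3 C 8w mice for 9 of the 10, all but Lcn2, against 29.6% of all genes. The filter favoured this position too for Saa1 and Saa2, which passed it in the C 8w mice and not in mouse 3e. With a single sample on each side there is no test of this difference.

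**Figure D3:**
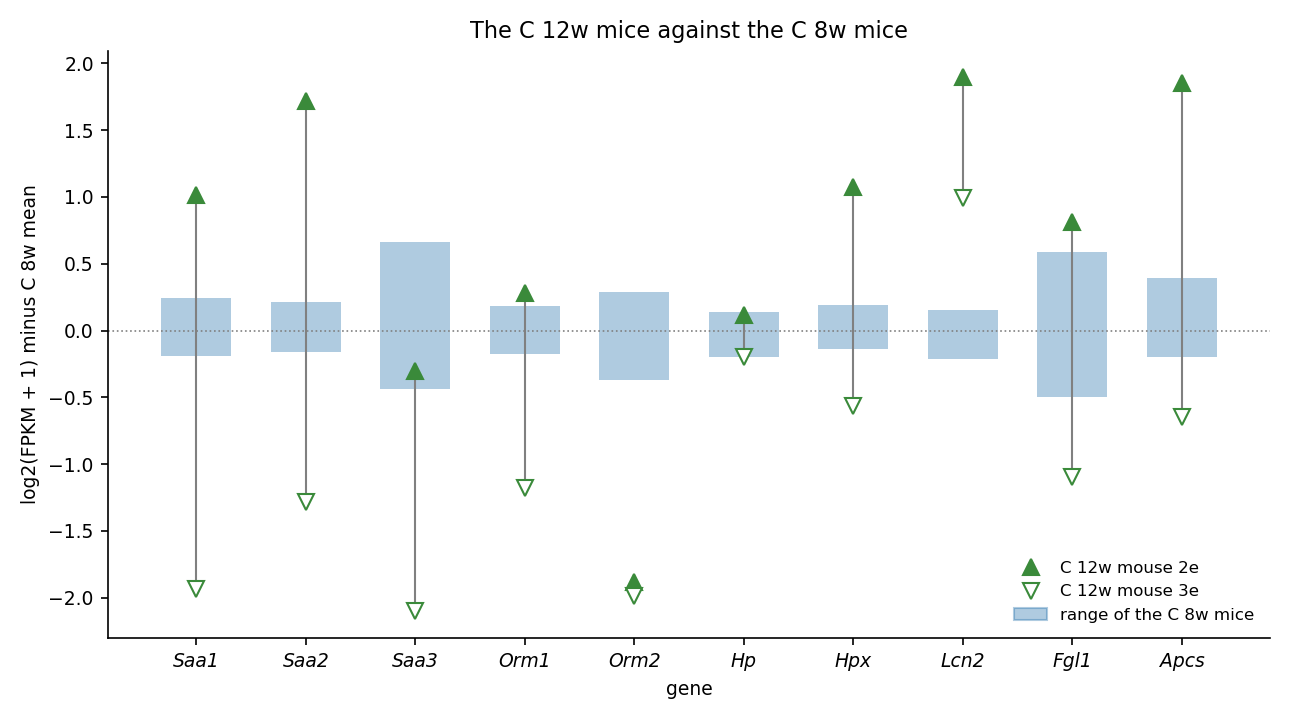
Difference of each C 12w mouse from the C 8w mean in log2(FPKM + 1), for mouse 2e (filled, pointing up) and mouse 3e (open, pointing down), with the range of the 3 C 8w mice as a bar. The mice lie on opposite sides of the C 8w range for Saa1, Saa2, Orm1, Hpx, Fgl1 and Apcs, on the same side for Orm2 (below) and Lcn2 (above), and 2e is above 3e for all 10 genes.

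Of 26 further positive acute phase genes, 15 were higher in 2e, with a median log2 difference of 0.22, and of 14 negative ones 11 were (median 0.53). Hepatocyte markers were higher in 2e for 10 of 11 genes (median 0.61), and bile duct markers for 1 of 7 (median -1.53). Macrophage markers were higher in 2e for 7 of 10 genes (median 0.73), neutrophil markers for 2 of 2 (median 1.22) and retina markers for 2 of 2 (median 0.39). The sum of the hepatocyte markers was 15833 in 2e and 10721 in 3e, and both samples are labelled tumor. The part of these markers in the difference of the acute phase genes was not tested.

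The other genes of the response were read from lists of known members. Beside their counts stand the shares of all genes, which were 25.3% higher and 14.1% lower (median log2 fold change 0.12) in C 8w + A 4w against C 8w, 17.4% and 15.4% (median 0.0077) against C 12w, and 12.2% and 6.98% (median 0.12) in C 12w against C 8w. No list was tested against them. Of the 26 further positive acute phase genes, all of them tested, 4 rose and 12 fell in C 8w + A 4w against C 8w, with a median log2 fold change of -0.40. Itih4, an inter-alpha-trypsin inhibitor heavy chain, fell by 3.35 ± 0.37 (SE; adjusted p = 0.000252), from a mean FPKM of 230 to 23.6. Cd14, the co-receptor for bacterial endotoxin, rose by 1.63 ± 0.24 (adjusted p = 0.00130), and the metallothionein Mt2 rose by 1.60 ± 0.26 (adjusted p = 0.00203). Against C 12w, 7 rose and 12 fell, again with Mt2 (2.56) and Cd14 (1.69) as the largest rises and Itih4 (-3.79) and Crp (-3.26) as the largest falls. In C 12w against C 8w, 3 rose, among them the IL-1 receptor antagonist Il1rn (1.07, adjusted p = 0.0171) and ceruloplasmin, Cp (0.85, adjusted p = 0.0310), and 3 fell, among them Orm3 and Saa4 (-1.69, adjusted p = 0.00776), a serum amyloid A made without inflammation.

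Of the 14 negative acute phase genes tested, 6 fell and 1 rose in C 8w + A 4w against C 8w, with a median of -0.81. Serpina6, the carrier of glucocorticoids, fell by 3.23 ± 0.46 (SE; adjusted p = 0.000972), and Igfals, which holds insulin-like growth factors in plasma, fell by 2.74 ± 0.39 (adjusted p = 0.00100). Apoa1, the main protein of high-density lipoprotein, rose by 1.04 ± 0.25 (adjusted p = 0.0107). Against C 12w 7 fell and 1 rose (Fetub, 1.04), and in C 12w against C 8w 2 fell (Apoa2 and Fetub) and 1 rose (Itih2).

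Of the IL-6 family and its signalling, 14 of 20 genes were tested, and 5 rose and 2 fell in C 8w + A 4w against C 8w (median 0.06), 7 of 14 beside 39.4% of all genes called. The cytokine Clcf1 rose by 1.15 ± 0.32 (SE; adjusted p = 0.0219) and Socs3, a feedback inhibitor induced by STAT3, by 0.87 ± 0.25 (adjusted p = 0.0228). The IL-6 receptor Il6ra fell by 0.41 ± 0.14 (adjusted p = 0.0402) and the kinase Tyk2 by 0.50 ± 0.09 (adjusted p = 0.00405). The FPKM of Il6 itself, named after its values were seen, was at most 0.0350 in any mouse. In C 12w against C 8w 2 rose, Bcl3 (2.07) and Clcf1 (1.41), and 1 fell, Lifr (-0.75), and in C 8w + A 4w against C 12w 2 rose and 2 fell.

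Of the IL-1, TNF and NF-kB genes, 18 of 23 were tested. In C 8w + A 4w against C 8w 2 rose, the IL-1 receptor Il1r1 (0.97 ± 0.21 SE, adjusted p = 0.00831) and the adaptor Traf6 (0.45), and 3 fell, among them the co-receptor Il1rap (-1.18 ± 0.11 SE, adjusted p = 0.000113). Against C 12w 3 rose and 6 fell, and in C 12w against C 8w 5 rose, led by Nfkb2 (1.11 ± 0.20 SE, adjusted p = 0.00959), and 2 fell, the receptor Tnfrsf1b (-0.82) and the inhibitor Nfkbia (-0.82). The medians of this list were -0.03, -0.10 and 0.21.

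Of the transcription factors that act on acute phase genes in hepatocytes, 12 of 14 were tested. Cebpb had an FPKM of 49.7 to 63.9 in C 8w, 49.6 to 81.5 in C 8w + A 4w and 18.4 to 26.7 in C 12w. It fell in C 12w against C 8w by 1.26 ± 0.24 (SE; adjusted p = 0.0112), and C 12w was below the other groups without overlap. Cebpa fell by 0.47 ± 0.12 in C 8w + A 4w against C 8w (adjusted p = 0.0127). In that comparison 1 factor rose (Atf6) and 3 fell, against C 12w 1 rose (Cebpb) and 5 fell, and in C 12w against C 8w 2 rose (Foxa3 and Atf6) and 1 fell. Of the receptors and partners of the 10 proteins, 11 of 16 were tested. Hmox1 was the single rise and Lrp1 the single fall in C 8w + A 4w against C 8w, 2 rose and 3 fell against C 12w, and 3 rose and 1 fell in C 12w against C 8w.

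**Figure D4:**
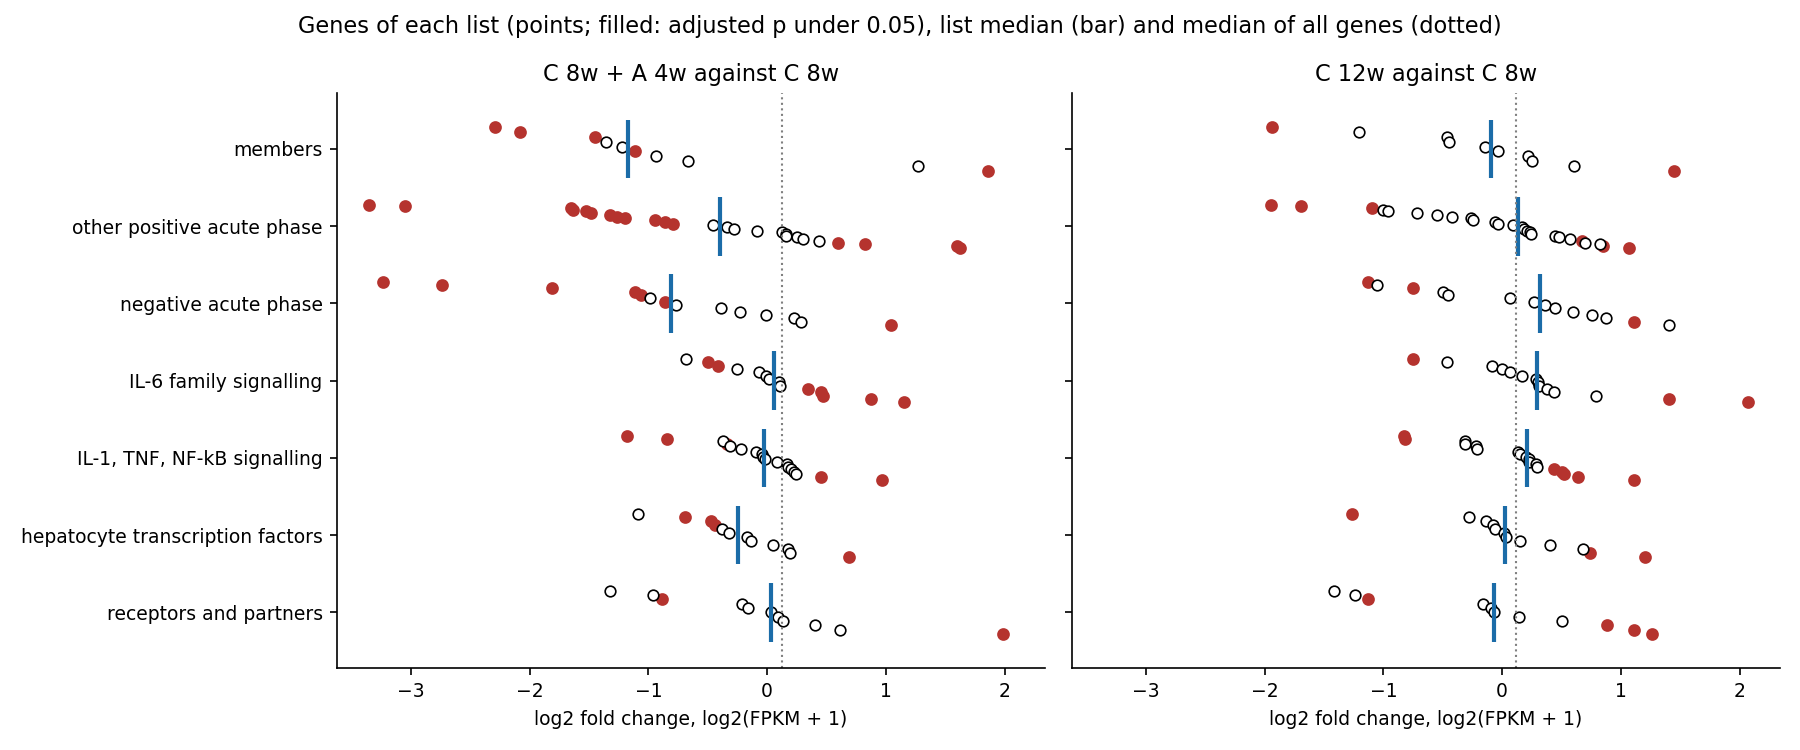
Log2 fold change of each gene (points, filled where the adjusted p is under 0.05) in the 10 acute phase genes (labelled members) and 6 lists of related genes, with the list median (bar) and the median of all genes (dotted line). In C 8w + A 4w against C 8w (left) the bars of the 10 genes, of the other positive genes and of the negative genes lie at -1.17, -0.40 and -0.81, and in C 12w against C 8w (right) they lie at -0.09, 0.13 and 0.31.

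For each of the 10 genes, the genes with the most similar course over the 8 mice were found, as the mean absolute difference in log2(FPKM + 1) after each gene was centred on its mean, over 8218 candidate genes. Hp was followed most closely by Proc, the gene of protein C (0.081), and Agpat2 (0.090). Hpx was nearest to Elovl2 (0.11) and Slc38a3 (0.15), Orm1 to Slc25a47 (0.13) and Gpt (0.17), and Apcs to A1bg (0.17) and Elovl5 (0.19). Saa2 was nearest to the chemokine gene Cxcl9 (0.14) and to A1bg (0.18), and Saa3 to Fndc10 (0.14) and Mogat1 (0.25). The nearest gene lay further away for Lcn2 (Fam84a, 0.22, and Msantd3, 0.23) and Saa1 (Oat, 0.24, and Amdhd1, 0.30). It also did for Fgl1 (Gm11437, 0.26, and Dnase2b, 0.28) and Orm2 (Slc27a5, 0.30, and Lars2, 0.34). The courses were centred but not scaled, so that genes that vary more can have larger differences. These values therefore do not rank similarity between the 10 genes. These are descriptions over 8 samples that share groups.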

How the data were processed

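RNA of 8 Fah-/- mice was compared in 3 groups, assigned from the treatment labels. The authors deposited FPKM values of 22504 Ensembl gene identifiers, 22314 with a symbol. The submitters' processing notes list Bowtie 0.12.2 and the build mm8. The quantifier and annotation are not given in the sources used here. FPKM keeps no read numbers, so the depth and counting error are unknown. The labels number the samples without stating separate animals beyond the groups of mice, and p-values measure only the spread between these samples.

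The 10244 genes that reached FPKM 1 in 4 or more of the 8 samples, with all 10 members among them, were compared as log2(FPKM + 1). Saa1 and Saa2 passed this filter in exactly 4 samples, those of C 8w and mouse 2e. The test was limma 3.58.1 under R 4.3.3, with lmFit and a trended eBayes, fitted once to all samples, two-sided, with Benjamini-Hochberg adjustment over all genes and a threshold of 0.05. Members and lists were chosen with earlier results of these data known. Besides the members, the genes that could be named were the 2 largest rises and 2 largest falls past the test in each list and comparison, with cell type lists given as counts and sums, and the 2 genes most alike each member in course, without members and genes with over 2% shared sequence. Shared sequence is the percentage of a gene's 50-base GENCODE M21 transcript windows found in another gene, and the authors' annotation may differ. Promoters come from RefSeq (GRCm38.p6), and no position was taken from the deposited files. Scripts used Python 3.11.15. The fit was tested on simulated data. Alternatives covered the pseudocount, floors on FPKM, scaling, shared sequence, the groups in the fit, samples left out, a fold limit and a replicate block.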

Additional observations from a re-analysis of the deposited data

How the results depend on the processing

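The 10 acute phase genes kept the direction of their log2 fold change in C 8w + A 4w against C 8w under every alternative run, and their count of 5 called genes was 3 with no filter, with a floor of FPKM 10 (47.3% of all genes called) and among genes with at most 2% shared sequence (which leaves 5 of the 10, with 35.2% of all genes called), neither of which tests Saa1 or Orm2, 6 with a pseudocount of 0.1 (Saa2 added), and 10 with only the 2 groups compared. Leaving out each sample gave 3 to 10, with 10 without C 12w replicate 2 (mouse 2e) or 3 (mouse 3e), and 3 without C 8w replicate 1 or 2 (mice 1a and 2a) or C 8w + A 4w replicate 1 (mouse C096), where Saa1 (adjusted p = 0.0506 to 0.0602) and Hpx (0.0506 to 0.0696) were no longer called. Against C 12w the count of 4 was 2 with no filter and with only the 2 groups compared, and 2 to 8 with samples left out, at 2 without C 8w + A 4w replicate 2 (mouse C097). With a pseudocount of 0.1, Saa1 was called there at -2.83 (adjusted p = 0.0499). Uncalled genes turned in sign there when 1 sample was left out. Orm1 ranged from -0.95 to 0.51, Orm2 from -0.35 to 0.12, Fgl1 from -1.75 to 0.16 and Lcn2 from -0.036 to 0.86. In C 12w against C 8w the count of 2 was 1 with the floor of FPKM 10 and among genes with little shared sequence, since Orm2 was not tested in either, and 2 to 6 with samples left out. Uncalled Saa2 turned to -0.46 with a pseudocount of 0.1, and Hp to 0.22 and Fgl1 to 0.0021 with quantile normalization. With 1 sample left out, Saa1 ranged from -1.94 (without mouse 2e) to 1.02 (without 3e), and between the same mice Saa2 from -1.28 to 1.72, Orm1 from -1.18 to 0.28, Hp from -0.20 to 0.12, Hpx from -0.57 to 1.07, Fgl1 from -1.09 to 0.81 and Apcs from -0.65 to 1.85. The cause of these changes was not tested.

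C 8w and C 12w have only the sample numbers 2 and 3 in common, and the correlation of the deviations of equal numbers was -0.189. A replicate block on these 4 samples called 1 of the 10 genes (Orm2) and 2.46% of all genes, with Hp at 0.031 and Fgl1 at 0.15, and the crossed pairing, chosen after seeing the data, called 0 of the 10 in limma (3 at an unadjusted p under 0.05) and 0.156% of all genes. Of all genes, 24.3%, 21.8% and 10.2% were called with no filter and 11%, 11.5% and 5.2% with an absolute log2 fold change of at least 1, in the order of the comparisons. With only the 2 groups compared 19.5% were called in C 8w + A 4w against C 12w. Without C 8w replicate 1, 24.1% were called in C 8w + A 4w against C 8w, and in C 12w against C 8w samples left out gave 6.61% to 36.1%. Median-ratio scaling moved the median of all genes in C 8w + A 4w against C 8w from 0.12 to -0.012 and changed the split of higher and lower calls from 2591 and 1443 to 1899 and 2168, while the 10 genes kept 1 rise and 4 falls. For the named genes outside the 10, the alternatives kept the call in 303, 335 and 272 recomputed values and lost it in 27, 30 and 96, in the order of the comparisons, and turned the direction of none.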
